A study of Mus musculus with 15 samples.

Results

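The cells described here were the Tbx4-positive cells of the allantois in single-cell RNA sequencing of gastrulating mouse embryos. Members were chosen by measured UMIs. A cell was taken when it held at least 1 unique molecular identifier (UMI, a tag that counts each captured RNA molecule once) of Tbx4 and at least 1 UMI of any of Pitx1, Hoxa10, Hoxa11, Hoxa13 or Plac1. Only barcodes with 200 to 7000 genes, fewer than 50000 UMIs and less than 10% mitochondrial UMIs were read. Of 93701 such cells from 15 embryos, 2200 were members (2.35%). Control embryos held 2066 of them among 77481 cells, and Mesp1 knockout embryos held 134 among 16220 cells. Because these UMIs chose the cells, the levels of Tbx4, of its 5 partner genes, and of Hand1 and Foxf1, which chose the cells they were compared with, are given as a description with no test.

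The allantois is a bud of extra-embryonic mesoderm that leaves the posterior end of the primitive streak, grows across the exocoelomic cavity and joins the chorion. Its core forms the umbilical vessels, so its cells pass through a vascular programme within an extra-embryonic tissue. Tbx4 is a T-box transcription factor of the allantois and later the hindlimb, Pitx1 is a homeodomain factor that acts with it in the hindlimb, and the 5′ Hox genes mark the posterior end of the body axis.

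The series asked how loss of Mesp1, a transcription factor of early cardiac and other mesoderm, changed the cells of the gastrulating embryo. Each library was 1 C57BL/6J embryo captured whole with the 10x Genomics 5′ chemistry. The knockout embryos were homozygous for a Cre knock-in at Mesp1 (Mesp1 Cre/Cre), and the controls kept at least 1 wild-type Mesp1 allele. All embryos carried a Smarcd3-F6::eGFP reporter at Hipp11, and all but the early E7.5 embryo and replicate 1 of the late E7.5 controls carried the Rosa26R Ai14 allele, which Cre switches on in the Mesp1 lineage. Controls comprised 3 embryos at E6.0, 2 at late E7.5, 2 at E7.75, and single embryos at early E7.5, at E7.0, at late E6.5, at E6.5 and at late E6.0. There was 1 knockout embryo at each of E6.5, E7.0 and late E7.5, so the genotype had no replicate at any stage. Yolk sac or proximal extra-embryonic tissue was removed for genotyping, and the yolk sac was taken off older embryos, so the amount of extra-embryonic tissue left may vary between libraries.

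Mesp1 was checked first as the targeted gene. The late E7.5 knockout held 5 Mesp1 UMIs among all its cells and the other knockouts held 0 and 1, against 3.21 to 194 UMIs per 1000000 UMIs (CPM) in the control libraries. The libraries came from experiments that stood apart from each other. Foxf1, a forkhead factor of lateral and extra-embryonic mesoderm, was at 62.1, 51.6 and 57.8 CPM over all cells of the early E7.5 embryo, late E7.5 control replicate 1 and E7.75 control replicate 2, all of experiment 7. It was at 6.53 in late E7.5 control replicate 2 (experiment 4), 3.78 in E7.75 control replicate 1 and 5.55 in the late knockout (both experiment 5). Of 5245 genes at 20 CPM or more in the experiment 7 libraries, 82 were at least 4-fold lower in every later library of experiments 4 and 5, and none of the 3834 genes at that level in those libraries was at least 4-fold lower in every experiment 7 library. The experiment 5 cells were also shallower: the median member held 5826 UMIs in E7.75 control replicate 1 and 4524 in the late knockout, against 20590 to 25860 in the other later embryos. Over all libraries the UMI total was 13058356 to 379177866 per embryo. Pairs of libraries shared up to 471 cell barcodes, which was 3.16% of the smaller library of that pair.

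Stretches of 200 bases before the start sites of Tbx4, Hoxa10 and Hoxa9 are printed for the gene that defines the cells, for the most often detected of its Hox partners and for that partner's neighbour. Tbx4 is on chr11:85886422-85916097 (plus strand), and the printed window lies inside this span, since the RefSeq start is downstream of the first annotated one. Hoxa10 (chr6:52231197-52240854), Hoxa11 (chr6:52242106-52245810), Hoxa13 (chr6:52257694-52260880) and Hoxa9 (chr6:52223100-52231089) are all on the minus strand of the HoxA cluster. The windows of Hoxa9 and of the downstream Hoxa10 start also lie inside the annotated spans of those genes. The sequences are the RefSeq table's GRCm38 reference, written 5′ to 3′ along the gene's strand, and no annotated exon overlaps them. Capitals mark TTTAT, the core letters that CDX and posterior HOX proteins are known to bind, searched on both strands.
Tbx4, chr11:85896565-85896764 (plus strand): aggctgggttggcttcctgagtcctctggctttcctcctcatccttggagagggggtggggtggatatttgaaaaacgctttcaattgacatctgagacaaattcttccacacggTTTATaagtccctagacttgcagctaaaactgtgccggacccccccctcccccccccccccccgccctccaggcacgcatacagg
Hoxa10, upstream start, chr6:52240855-52241054 (minus strand): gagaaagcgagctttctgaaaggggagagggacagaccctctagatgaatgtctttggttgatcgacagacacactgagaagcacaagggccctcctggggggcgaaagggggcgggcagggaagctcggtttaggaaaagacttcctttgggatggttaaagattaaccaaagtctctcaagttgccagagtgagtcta
Hoxa10, downstream start, chr6:52234940-52235139 (minus strand): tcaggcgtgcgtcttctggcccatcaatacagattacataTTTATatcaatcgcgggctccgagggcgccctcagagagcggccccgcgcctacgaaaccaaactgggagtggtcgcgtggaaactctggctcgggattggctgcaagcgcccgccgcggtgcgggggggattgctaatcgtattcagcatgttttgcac
Hoxa9, chr6:52227371-52227570 (minus strand): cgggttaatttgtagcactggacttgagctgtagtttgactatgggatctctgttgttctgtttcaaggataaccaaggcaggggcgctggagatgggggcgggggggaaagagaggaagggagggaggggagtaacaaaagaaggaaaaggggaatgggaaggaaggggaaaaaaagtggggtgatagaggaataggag
The letters TTTAT occurred 1 time before Tbx4 and 1 time before the downstream Hoxa10 start, and were in neither the upstream Hoxa10 window nor the Hoxa9 window, nor in the same window of Hoxa13, which is not printed. They occurred in 10133 of 32851 windows of the same length in the table (30.9%). GGTGTGA, the core letters of a T-box site, was in 867 windows (2.64%) and in none of those printed. The matches are letters in these windows only, and no binding was measured.

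Members appeared late. None was found in the 4 E6.0 and late E6.0 embryos, where 0 of 1497, 0 of 288, 0 of 255 and 0 of 531 cells allow shares of up to 0.2004%, 1.04%, 1.18% and 0.565% by a floor of 3 counts. There were 7 of 3994 cells at E6.5, 5 of 2130 at late E6.5 and 9 of 5582 at E7.0, and 1 in each of the 2 younger knockouts. At early E7.5 the control embryo held 178 of 5861 cells (3.04%, exact 95% binomial interval 2.61 to 3.51). The late E7.5 controls held 62 of 6768 (0.916%, 0.703 to 1.17) and 1015 of 22277 (4.56%, 4.29 to 4.84). At E7.75 the controls held 149 of 14884 (1.001%, 0.847 to 1.17) and 641 of 13414 (4.78%, 4.42 to 5.15). Replicates of the same stage thus differed by more than their counting intervals, which cover counting error only. The late E7.5 knockout held 132 of 12853 cells (1.03%, 0.860 to 1.22), within the range of the 4 late controls.

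The share of cells that meet the rule depends on depth, so cells were also thinned to 2000 UMIs. Cells with fewer than 2000 UMIs were left out of the thinned shares, members and total alike. The shares then fell to 0.455% at early E7.5, 0.139% and 1.17% in the late E7.5 controls, 0.365% and 0.814% at E7.75, and 0.466% in the late knockout. Cells that should lack these genes gave the background of the rule. Among cells with visceral endoderm markers, 3 of 886 (0.339%) met the rule at early E7.5, 1 of 836 (0.120%) and 38 of 2959 (1.28%) in the late E7.5 controls, 2 of 286 (0.699%) and 18 of 1304 (1.38%) at E7.75, and 2 of 885 (0.226%) in the knockout. That share was below the share over all cells in 5 of these embryos by more than its exact 95% interval. In E7.75 control replicate 1 the interval, 0.0848% to 2.503%, covered the share over all cells (1.001%), so the share there could not be told from this background. The median visceral endoderm cell held 5341 UMIs in the knockout, 6905 in E7.75 control replicate 1 and 19940 to 22580 in the other 4 embryos, close to the members' own medians. Cells with ectoderm markers were taken only when they held no Hand1 UMI. Hand1 was detected in 56.4% to 100% of members in these embryos, so this choice left out most cells meeting the rule in advance. It therefore says little on the background. Among these cells with ectoderm markers, 2 of 802 met the rule in late E7.5 control replicate 2, 1 of 1914 in E7.75 control replicate 2 and 0 in the other 4 embryos.

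**Figure D1:**
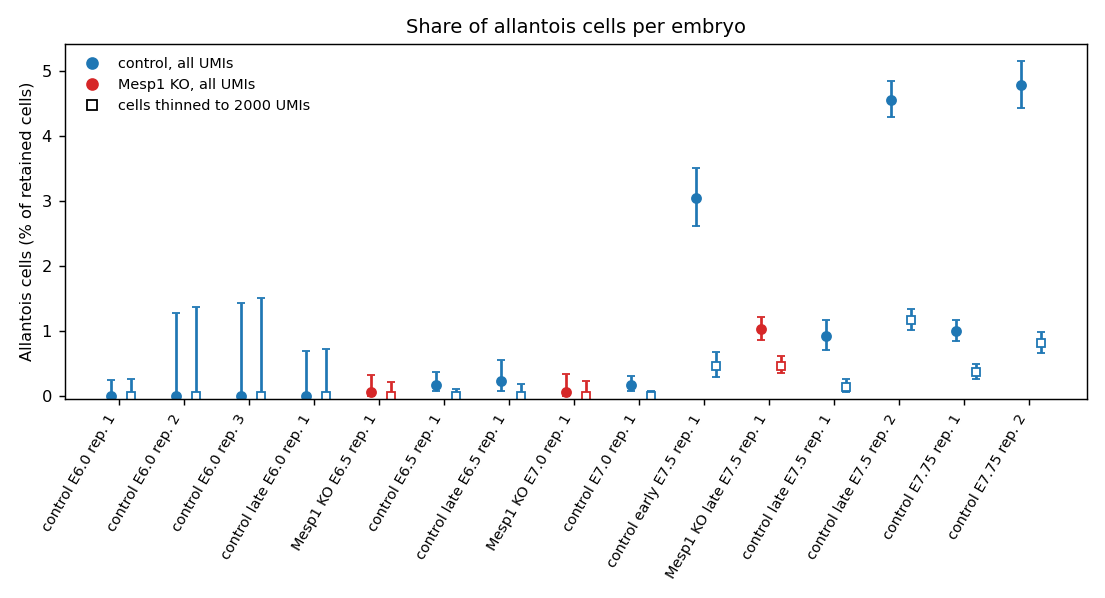
Share of cells meeting the allantois rule in each embryo, in percent of retained cells, for all UMIs (filled circles). Open squares are shares after thinning to 2000 UMIs, among cells with at least 2000. Bars are exact 95% binomial intervals, controls are blue and knockouts red. The late knockout (1.03%) sits beside E7.75 control replicate 1 (1.001%) and late E7.5 control replicate 1 (0.916%), below the other controls from early E7.5 on.

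Whether the Mesp1 knockout held fewer allantois cells could be asked of the late embryos alone. The knockout share was 1.03% and the control mean 2.81% ± 2.14 (SD, n = 4), a difference of -1.79 percentage points. An exact two-sided permutation test over the 5 embryos gave p = 1, where the smallest p this design allows is 0.2. After thinning, the difference was -0.155 percentage points, with 0.466% in the knockout and 0.621% ± 0.459 (SD, n = 4) in the controls. Against the control of its own experiment the knockout share was higher by 0.026 percentage points. It was also higher after thinning, with at least 2 Tbx4 UMIs required and without likely doublets. It was lower with Plac1 not counted (0.871% against 0.914%), with at least 2 partner genes required (0.459% against 0.477%) and with any Tbx4 UMI taken (1.34% against 1.38%). The sign thus rested on the rule as well as on which controls entered. As a share of Hand1+ Foxf1+ cells, those meeting the rule were 2.19% in the knockout and 4.33%, 24.5%, 7.38% and 21.4% in the late controls. The knockout lay below every control, a difference of -12.2 percentage points from their mean (exact two-sided permutation p = 0.4). These shares rested on 5 such members in the knockout and 9 in E7.75 control replicate 1. Foxf1 was low in experiments 4 and 5, and the part of experiment and depth in this difference was not tested.

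The genes that chose the cells did not contribute alike. Pitx1 was detected in 87.1% of members at early E7.5, 88.7% and 90.2% in the late E7.5 controls, 68.5% and 90.3% at E7.75 and 69.7% in the late knockout. Plac1, a placenta-enriched gene on the X chromosome, was detected in 34.9% of members in E7.75 control replicate 1 and 43.2% in the knockout, and in 74.2% to 90.4% elsewhere. Hoxa10 ranged from 27.3% in the knockout to 78.7% at early E7.5, Hoxa11 from 15.9% to 60.7% in the same embryos, and Hoxa13 from 2.01% to 9.55%. The shallow experiment 5 embryos gave the lowest detection of all 5 partner genes. All 5 partners were seen together in 7.30% of members at early E7.5 and in none of the members of either experiment 5 embryo.

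Many members sat at the edge of the rule. Members with a single Tbx4 UMI made up 32.7% to 37.1% of the set in the early E7.5 embryo, late E7.5 control replicate 2 and E7.75 control replicate 2, and 56.8% to 63.8% in the other later embryos. Just inside the rule were members with 1 UMI of Tbx4 and 1 partner UMI. They were 38 of 149 in E7.75 control replicate 1 and 34 of 132 in the knockout. They were 2 of 178 at early E7.5 and 20 of 641 in E7.75 control replicate 2. The late E7.5 controls held 5 of 62 and 38 of 1015. Just outside, cells with Tbx4 and no partner numbered 57 in E7.75 control replicate 1, 40 in the knockout and 13 at early E7.5. They numbered 8 and 108 in the late E7.5 controls and 42 in E7.75 control replicate 2. Cells with no Tbx4 UMI but 4 or more partner genes numbered 55 in late E7.5 control replicate 2 and 54 in E7.75 control replicate 2, and 0 in E7.75 control replicate 1.

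Over the cells' summed UMIs, Tbx4 stood at 112, 86.2, 154, 248.9 and 138 CPM in the early E7.5, late E7.5 replicate 1 and 2 and E7.75 replicate 1 and 2 controls, and at 329 in the late knockout. This order of the control embryos holds wherever 5 values are listed. Each member held at least 1 Tbx4 UMI by the rule, which sets a floor under this level that rises as cells get shallower. In the knockout and E7.75 control replicate 1, 56.8% and 63.8% of members held 1 Tbx4 UMI only. The Tbx4 values are thus not compared between embryos. Hand1, a bHLH factor of extra-embryonic and lateral mesoderm, stood at 1036, 869, 450, 226 and 598, and at 450 in the knockout. Foxf1 divided by experiment, at 258, 231, 20.6, 15.4 and 198, with 12.6 in the knockout. Accordingly 163 of 178 members at early E7.5 held both Hand1 and Foxf1, against 9 of 149 in E7.75 control replicate 1 and 5 of 132 in the knockout. An order of levels between genes is not drawn, since these values are not per length.

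The genes that led the members over all other cells are described for the 4 late controls with no test, since the same cells chose them. Only genes at 50 CPM or more in the members of every late control were ranked, and Tbx4 and its partner genes were left out. Among these Col1a1, a fibrillar collagen, was first with 69.4 ± 3.94 CPM in members and 6.60 ± 1.56 in other cells (SD, n = 4), a mean log2 ratio of 3.42 ± 0.38. Among growth regulators and imprinted genes, Phlda2, a placental growth restrictor, was at 2525 ± 239 against 628 ± 261 CPM, and Peg10, Cdkn1c, Slc38a4 and Dlk1 had mean log2 ratios of 2.05, 1.79, 2.45 and 2.09. Among transcription factors were Etv2, which drives endothelial and blood fate (126 ± 21.5 against 18.9 ± 3.23), with Snai1, Hoxb6 and Myc at log2 ratios of 2.12, 2.92 and 2.13. Among the signalling genes, the ligands Wnt5a and Bmp4 and the BMP decoy receptor Bambi had log2 ratios of 2.19, 1.82 and 2.22. Suv39h1, a histone H3 lysine methyltransferase, and Mmp2, a matrix protease, varied little between embryos, at 2.18 ± 0.06 and 1.64 ± 0.06.

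The allantois cells were compared with other mesoderm cells of the same embryos. These held Hand1 and Foxf1 UMIs but no Tbx4 and no partner UMI, and numbered 417, 613, 352, 77 and 920 in the order above. Hand1+ Foxf1+ cells with a partner UMI but no Tbx4, or with Tbx4 but no partner, were in neither set. Genes raised here were not tested against those cells. UMIs of each set were summed within each of the 5 control embryos from early E7.5 on. They were tested in edgeR's quasi-likelihood test with the embryo as a block and Benjamini-Hochberg adjustment over all genes tested. The test reads genes other than the chosen ones, though in the same cells. Of 12838 genes, 2769 passed an adjusted p of 0.05 (21.6%), 1367 higher in the allantois cells (10.6%) and 1402 lower (10.9%). The count was 1161 of 12126 without E7.75 control replicate 2 and 137 of 3522 with cells thinned to 2000 UMIs, each with 4 embryos. In the main fit the median log2 difference over all genes was -0.002. The comparison cells were a mixed mesoderm: Msgn1 and Tbx6, factors of the presomitic mesoderm, were at 222 ± 162 and 60.8 ± 28.02 CPM in them (SD, n = 5). By embryo Msgn1 was at 412, 183, 129.8, 23.7 and 360 CPM in them. It was at 101, 74.5, 37.6, 28.5 and 105 in all cells outside the members.

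Hoxa10, Hoxa11 and Hoxa13 helped to choose the members and were absent from the comparison cells, so the other posterior Hox genes were also read without that choice. Of 21 posterior Hox genes tested, 15 were higher and none lower, with a median log2 difference of 2.17. In an alternative chosen after seeing the data, no Hox gene chose either set: members held Tbx4 with Pitx1 or Plac1, and comparison cells lacked Tbx4, Pitx1 and Plac1 only. Of 21 posterior Hox genes 15 were then higher and none lower, with a median of 2.14, and Hoxc10 and Hoxa9 were higher by log2 differences of 6.005 and 4.28. Hoxc10 was at 17.5, 18.7, 43.0, 25.3 and 23.0 CPM in the allantois cells and at 0.210, 0, 0.121, 7.10 and 0.0980 in the comparison cells. The groups did not overlap, and the log2 difference was 7.11 (SE 0.40, adjusted p = 2.28e-07 by edgeR). By embryo its log2 ratio ran from 1.73 in E7.75 control replicate 1 to 8.125 in late E7.5 control replicate 2. Hoxa9, the neighbour of the rule gene Hoxa10, was at 44.5, 22.3, 84.0, 92.5 and 72.7 against 0, 0.0842, 5.79, 30.8 and 1.32. Its log2 difference was 4.93 (SE 0.43, adjusted p = 7.91e-06), and 1.53 with cells thinned to 2000 UMIs (adjusted p = 0.0306). Hoxc9 and Hoxc8 were higher by log2 differences of 4.56 and 3.46, Hoxa7 by 3.34 and Hoxc6 by 3.25. Hoxc11, Hoxd10 and Hoxd11 were higher by 7.08, 6.26 and 4.98, Hoxc11 in 4 of 5 embryos. Comparison cells of E7.75 control replicate 1 held Hoxc8 at 85.2 CPM, against 163 in its allantois cells. Hoxc8 no longer passed without the embryo as a block (adjusted p = 0.274). Hoxc6, Hoxc8, Hoxc9 and Hoxc10 overlap Hoxc5 on the same strand in the annotation, so the division of reads between them is uncertain.

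The 3′ end of the clusters showed the opposite. Of 11 anterior Hox genes tested, 8 were lower and 1, Hoxd3, was higher, with a median of -1.39. Hoxd3 did not pass under 8 of the other settings. Hoxb1, the hindbrain and early posterior mesoderm Hox gene, was at 19.1, 25.1, 12.8, 13.2 and 22.7 CPM in the allantois cells and at 230, 209, 128, 61.5 and 169 in the comparison cells. The groups did not overlap, and the log2 difference was -3.17 (SE 0.11, adjusted p = 5.69e-09 by edgeR). Hoxa2 and Hoxa4 were lower, at log2 differences of -2.71 and -2.04. Hoxa4 missed the threshold when E7.75 control replicate 2 was left out (adjusted p = 0.100). Opposite calls were thus found within the HoxA cluster itself, between Hoxa2 and Hoxa4 and their neighbours Hoxa7 and Hoxa9.

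**Figure D2:**
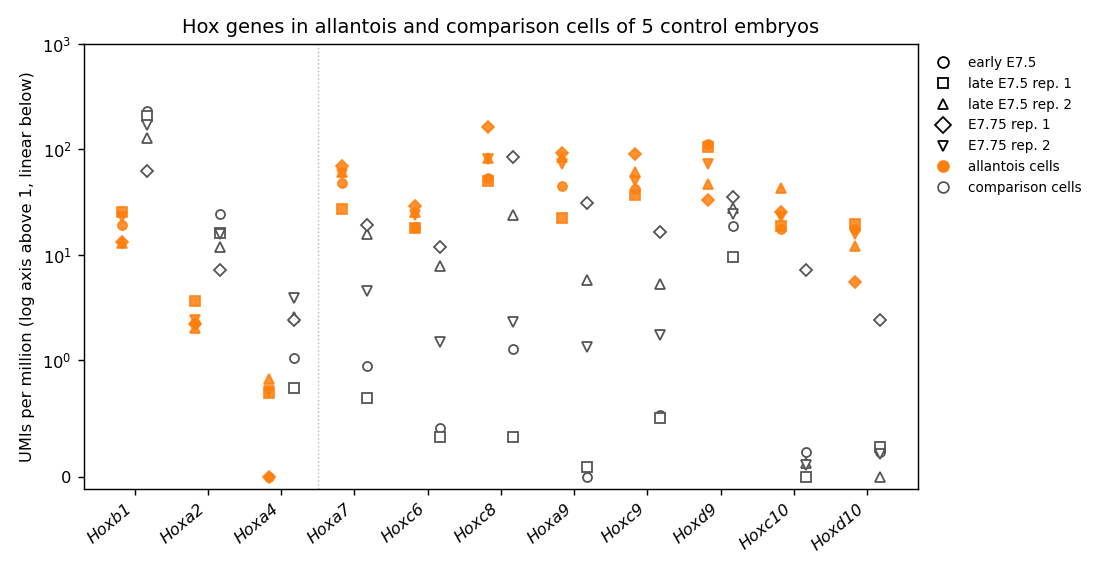
CPM of Hox genes in the allantois cells (filled orange) and the Tbx4-negative Hand1+ Foxf1+ comparison cells (open grey) of 5 control embryos, each embryo a marker shape; the axis is logarithmic above 1 and linear below. Left of the dotted line, anterior genes such as Hoxb1 lie lower in the allantois cells; right of it, posterior genes such as Hoxc10 (17.5 to 43.0 against 0 to 7.10) lie higher.

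Called genes above 20 CPM were ranked among those that moved the same way in every embryo. Beyond the Hox genes, the 12 most raised of these included Col1a1, Acvrl1, Twist2, Amot, Eng and Gfpt2. Col1a1 was at 54.6, 74.7, 69.3, 68.3 and 65.3 CPM in the allantois cells and at 6.10, 4.80, 9.40, 14.2 and 5.68 in the comparison cells. The groups did not overlap (log2 difference 3.32, SE 0.14, adjusted p = 3.08e-08 by edgeR), and with cells thinned to 2000 UMIs the log2 difference was 1.23 (adjusted p = 0.01995). Amot, which encodes the Hippo pathway scaffold angiomotin, was at 402, 299.7, 478, 369 and 508 against 69.1, 63.7, 51.2, 26.0 and 60.9 (log2 difference 2.82, SE 0.14, adjusted p = 1.16e-07). Acvrl1 and Eng encode the ALK1 receptor and its co-receptor endoglin of vascular BMP9 signalling. They were higher by log2 differences of 3.12 and 2.82. The bHLH factor Twist2 was higher by 2.84 and Gfpt2, an enzyme of hexosamine synthesis, by 2.57. Of the leading genes, Spin2, Morc4, Myc and Suv39h1 were higher by 2.30, 2.15, 2.12 and 2.04 against these mesoderm cells too. Phlda2 was not called against them (log2 difference 0.51, adjusted p = 0.135), though it passed under 4 of the other settings.

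Genes of paraxial mesoderm and the streak were lower in the allantois cells. All 12 paraxial mesoderm genes tested were lower, with a median log2 difference of -2.71, and 9 of 13 streak genes were lower with none higher and a median of -1.70. Msgn1 was at 9.44, 5.75, 15.5, 3.30 and 30.8 CPM in the allantois cells and at 412, 183, 129.8, 23.7 and 360 in the comparison cells. Its log2 difference was -3.78 (SE 0.25, adjusted p = 1.04e-06 by edgeR). Aldh1a2, which makes retinoic acid, was lower, at -3.71, as were Tbx6 at -3.15 and the Notch ligand Dll1 at -3.03. The streak genes Lhx1, Nodal and Mesp2 were at -3.81, -3.42 and -3.03, and DESeq2 did not call Nodal. Cardiomyocyte genes were lower in 11 of 13 cases with none higher and a median of -1.44, among them Tnnt2 (-2.92), Mef2c (-2.71) and Myl7 (-2.20). Tdo2, Pcdh19, Arg1, Plxna2, Meis1 and Gfra3 made up the rest of the 12 most lowered genes that moved the same way in every embryo. They were at -3.83, -3.49, -3.29, -3.01, -2.97 and -2.96.

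**Figure D3:**
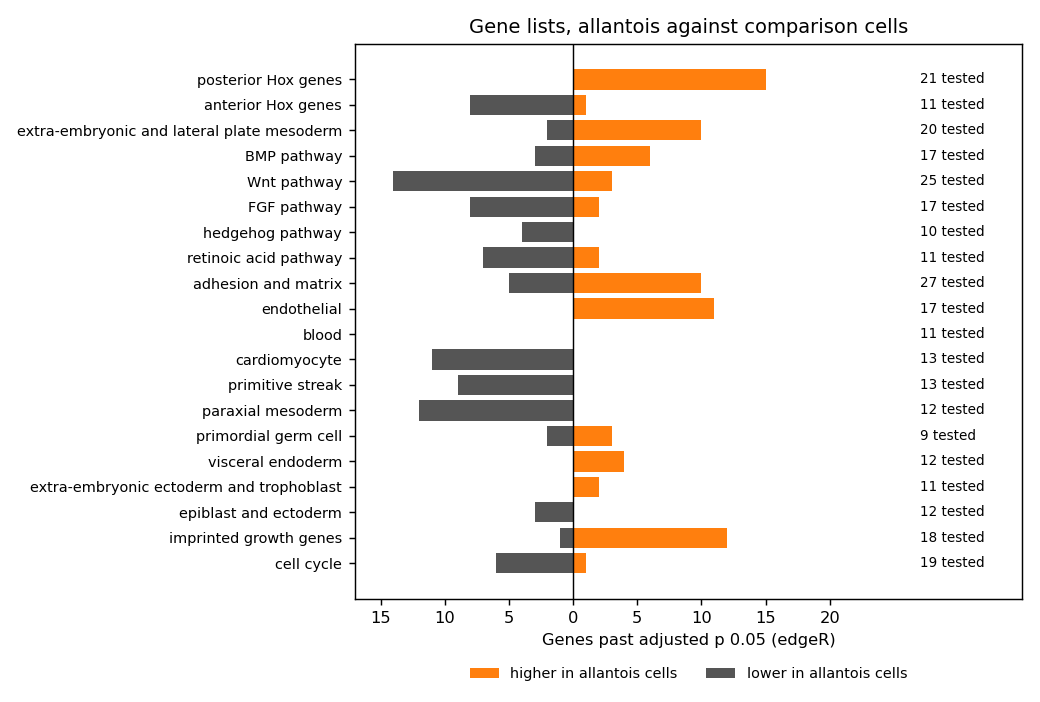
Number of genes of each list higher (right) or lower (left) in allantois cells than in comparison cells at an adjusted p below 0.05, with the number tested beside each list. Posterior Hox (15 of 21) and endothelial genes (11 of 17) lie to the right, and paraxial mesoderm (12 of 12) and cardiomyocyte genes (11 of 13) to the left.

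Endothelial genes rose together in part. Of 17 tested, 11 were higher and none lower, with a median of 1.25. Etv2 was at 61.6, 99.9, 147, 140 and 118 CPM in the allantois cells and at 53.5, 29.1, 5.67, 4.73 and 11.5 in the comparison cells. The allantois cells were higher in each embryo, by the least at early E7.5 (log2 difference 2.42, SE 0.48, adjusted p = 0.00361 by edgeR). Kdr, the VEGF receptor of endothelial progenitors, was at 35.5, 29.5, 99.8, 109 and 71.1 against 28.2, 15.9, 4.34, 2.37 and 11.4 (log2 difference 2.17, SE 0.46, adjusted p = 0.00510). Plvap and Sox17 were higher by 2.23 and 2.15. The later junction gene Cdh5 was near 0, at 0.719 to 4.92 CPM, and Pecam1 was at 2.20 to 8.09. With only members that held Hand1 and Foxf1 UMIs, 5 of 17 endothelial genes were higher and 1 lower. E7.75 control replicate 1 held 9 such members, under the minimum of 10, and was not in that fit. Leaving out that embryo alone gave 8 of 18 higher and none lower, and in the experiment 7 embryos alone 7 of 18 were higher and 1 lower. Without E7.75 control replicate 2, 4 of 17 were higher and Kdr missed the threshold (adjusted p = 0.0622).

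Detection of Etv2 and Kdr per cell was read as well, where a cell with 0 UMIs may still express the gene. Etv2 was detected in 62.9%, 54.8%, 49.9%, 41.6% and 58.7% of members, against 4.93% to 20.1% of all other cells. Kdr was detected in 35.96%, 37.1%, 45.6%, 35.6% and 39.3%. Both were found in 20.1% to 33.0% of members and neither in 21.3% to 43.0%. In the late knockout, Etv2 was in 32.6%, Kdr in 19.7%, both in 9.85% and neither in 57.6%, in cells with a median of 4524 UMIs. Depth differed between the embryos, and these shares were not thinned.

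Markers of other cell types were read beside these genes. Of 11 blood genes none was called by edgeR, with 2 at an unadjusted p below 0.05, beside 4353 of all 12838 genes tested. Hbb-bh1 and Gfi1b had log2 differences of -0.91 and -0.97. DESeq2 called 1, Gata1, as lower, and without likely doublets 2 of the 4 blood genes still tested were higher. By edgeR 2 of 5 were lower in the experiment 7 embryos alone and 2 of 11 with Hand1 and Foxf1 required, and Hbb-bh1 was at -2.44 in experiment 7 (adjusted p = 8.90e-07). Hbb-bh1 was at 0.17 without likely doublets, 0.14 with no embryo block and 0.0107 without E7.75 control replicate 2, and not called in any of these. In late E7.5 control replicate 2, however, the embryonic globin Hba-x was detected in 42.3% of members and in 44.7% of other cells, a like share in both. Visceral endoderm genes were higher in 4 of 12 cases, with a median of 0.64. The count was 1 of 12 and the median -0.18 when members had to hold Hand1 and Foxf1 UMIs, again without E7.75 control replicate 1. They were 3 of 12 and 0.53 without that embryo alone, 1 of 11 and 0.33 without E7.75 control replicate 2, and 1 of 12 and 0.74 by DESeq2. Sox17 is also in the endothelial list. Apoa4, with a log2 difference of 0.92, was at -0.37 with Hand1 and Foxf1 required. Cells marked as likely doublets made up 7.30%, 8.06%, 30.3%, 26.2% and 19.8% of members, against 5.39%, 5.67%, 18.5%, 11.9% and 11.4% of all cells. Without them 15 of 20 posterior Hox genes and 9 of 18 endothelial genes were higher, and 1 endothelial gene was lower. Among germ cell markers, Kit (log2 difference 2.59), Prdm1 (1.09) and Ifitm3 (0.70) were higher and Pou5f1 (-1.19) and Ifitm1 (-1.0) lower of 9 tested, with a median of 0.25, and Prdm1 missed the threshold without E7.75 control replicate 2 (adjusted p = 0.0979 by edgeR). The defining germ cell genes Dppa3 and Nanos3 were at 0 to 2.03 and 0 to 0.553 CPM in the members.

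Signalling genes are given by pathway. Of 17 BMP genes, 6 were higher, 3 lower, with a median of 0.10. The higher ones included the ligand Bmp7 (1.60), Bambi (1.53), and the inhibitory Smad6 (1.30) and Smad7 (0.996). The ligand Bmp4 was at 152, 141, 99.97, 50.7 and 123 CPM in the allantois cells and at 87.6, 89.7, 69.3, 61.5 and 58.9 in the comparison cells. It was higher in all embryos but E7.75 control replicate 1 (log2 difference 0.73, SE 0.10, adjusted p = 1.89e-04 by edgeR). Bmp4 was not called with cells thinned to 2000 UMIs (log2 difference 0.20, adjusted p = 0.811) or with no embryo block (adjusted p = 0.113). Of 25 Wnt genes, 14 were lower and 3 higher, with a median of -0.68. With cells thinned to 2000 UMIs, only 4 of them were tested and 0 called, with a median of 0.32. The Wnt list summed to 542.5, 565, 492, 467 and 586 CPM in members and to 845, 783, 673, 416 and 997 in the comparison cells. Over all other cells it summed to 517, 659, 439, 428 and 713, so members were not lower than these in every embryo. The canonical ligand Wnt3a, the antagonist Sfrp5 and the target Sp5 were lower, at -2.97, -2.99 and -2.12, while the non-canonical ligands Wnt5a and Wnt11 were higher by 1.06 and 1.12. Of 17 FGF genes, 8 were lower and 2 higher, with a median of -0.24. The ligands Fgf4, Fgf8 and Fgf17 were at -2.80, -1.93 and -1.66. The FGF list summed to 428, 438, 208, 178 and 318 CPM in members. Over all other cells it summed to 404, 370, 274, 226.5 and 388. Hedgehog genes were lower in 4 of 10 cases (median -0.47), among them Shh (-2.47, not called by DESeq2) and the target Gli1 (-2.12). Of 11 retinoic acid genes, 7 were lower (median -0.74), with the receptor Rarb at -2.71 and the retinol transporter Stra6 at -2.39. The exceptions were Cyp26a1, which breaks retinoic acid down, and the receptor Rarg, higher by 1.95 and 0.95.

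Extra-embryonic and lateral plate factors were higher in 10 of 20 cases and lower in 2, with a median of 0.58. Tbx2 was at 14.6, 7.91, 6.92, 6.61 and 12.96 CPM against 0.526, 0.253, 0.603, 0 and 0.686, and the groups did not overlap (log2 difference 4.304, SE 0.24, adjusted p = 2.51e-07 by edgeR). Twist1 and Tbx20 were higher by 1.25 and 1.64, and the caudal factor Cdx1 was lower, at -1.99 while Cdx2 was higher by 0.77. With cells thinned to 2000 UMIs, Cdx2 (0.23), Bmp7 (1.06), Wnt5a (0.73), Rarg (0.59), Ifitm3 (0.85) and Pou5f1 (-0.84) were no longer called, as was Bmp4. Imprinted growth genes were higher in 12 of 18 cases (median 0.66), with Peg10 at 616, 525, 697, 785 and 667 CPM against 191, 207, 125, 222 and 131 (log2 difference 1.96). Cdkn1c, a cyclin-dependent kinase inhibitor, was higher by 1.68, Slc38a4 by 1.64, and Nnat was lower, at -1.88. Adhesion and matrix genes were split, 10 higher and 5 lower of 27 (median 0.03). Vcam1 and Itga4, the adhesion pair of chorion and allantois, were higher by 1.43 and 1.20, though Vcam1 missed the threshold under 5 of the other settings, among them DESeq2 and the fit without late E7.5 control replicate 2 (log2 differences 1.01 and 0.81, adjusted p = 0.351 and 0.293), and Itga4 missed it without E7.75 control replicate 2 (adjusted p = 0.0811 by edgeR). Alcam, Itga8 and Col3a1 were lower, at -2.07, -1.96 and -1.80. Of 19 cell cycle genes, 6 were lower (among them Cdkn1a at -1.55 and Ccne1 at -0.60) and 1 was higher, with a median of -0.14. After that thinning 18 were tested and 0 called, and Ccne1 was at 0.11. Epiblast genes were lower in 3 of 12 cases (median -0.67), and of 11 trophoblast genes 2 were higher, Krt19 (1.67) among them (median -0.16). With Hand1 and Foxf1 required, 2 trophoblast genes were higher and 3 lower, and with cells thinned to 2000 UMIs 3 of 4 were lower and none higher (median -1.06).

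The reporters gave a readout that the rule did not use. Ai14 transcripts were found in 567 of 1015 members (55.9%, exact 95% interval 52.7 to 59.0) in late E7.5 control replicate 2, 23 of 149 (15.4%) in E7.75 control replicate 1 and 432 of 641 (67.4%) in replicate 2. The comparison cells of those embryos gave 36.6%, 9.09% and 42.5%. Embryos without the allele gave 0 of 62 and 2 of 178 (1.12%), and 3.76% and 2.48% of their cells with visceral endoderm or ectoderm markers. Among the other cells with visceral endoderm or ectoderm markers, 6.53%, 1.17% and 6.67% held Ai14 in the same 3 embryos. The share was higher in members in 3 of 3 embryos, by a mean of 16.8 percentage points (SD 9.50), with an exact two-sided permutation p of 0.25, the smallest that 3 pairs allow. Thinned to 2000 UMIs, the difference was 2.20 points and held in 2 of 3 embryos. In the late knockout, 22 of 132 members (16.7%) and 34 of 168 comparison cells (20.2%) held Ai14. In the 4 late controls the eGFP reporter differed by a mean of 4.10 points (SD 4.80), higher in members in 3 of 4 embryos (exact two-sided permutation p = 0.25, smallest 0.125). It was higher in 2 of 4 without likely doublets or with at least 2 reporter UMIs required, and after thinning the difference was -0.776 points. The early E7.5 control, which was not in this test, held eGFP in 10.1% of members and 12.7% of comparison cells.

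**Figure D4:**
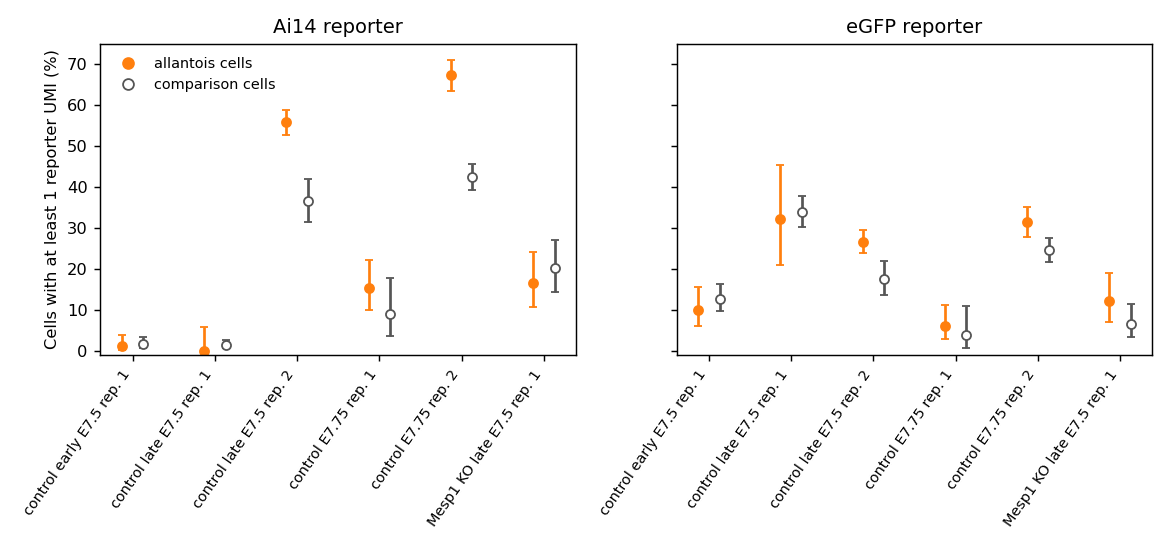
Share of allantois cells and comparison cells with at least 1 UMI of the Ai14 or eGFP reporter, in percent, by embryo, with exact 95% binomial intervals. Ai14 was in 55.9% and 67.4% of allantois cells in late E7.5 control replicate 2 and E7.75 control replicate 2, above the comparison cells (36.6% and 42.5%), and near 0 in the embryos without the allele.

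The last comparison asked which genes differed within the allantois cells between the late knockout and the 4 late controls. By edgeR, 0 of 9069 genes passed an adjusted p of 0.05 (0.0%), with 500 at an unadjusted p below 0.05. DESeq2 called 2 genes, Ndufa4l2 and Sprr2a3. Both are named after their values were seen. When E7.75 control replicate 1, the control of the knockout's own experiment, was left out, 244 genes were higher and 12 lower in the knockout, so the count rested on that library. The sums behind the test were 637557 UMIs in the knockout and 907914 in that control. The values below are listed as late E7.5 control replicates 1 and 2 and E7.75 control replicates 1 and 2.

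The genes that chose the cells were at 218 (Pitx1), 69.0 (Hoxa10), 37.6 (Hoxa11) and 130 (Plac1) CPM in the knockout, as a description. Each member held at least 1 partner UMI by the rule, so depth bears on these levels. Of the leading genes, Col1a1 was at 107 CPM in the knockout and at 74.7, 69.3, 68.3 and 65.3 in the controls. Amot was at 552 against 299.7, 478, 369 and 508. Wnt5a was at 50.2, below the 119, 100.4, 92.5 and 108 of the controls. None of these passed the test (adjusted p = 0.798 for each by edgeR). Etv2 at 102 and Kdr at 59.6 lay within the control ranges of 99.9 to 147 and 29.5 to 109. Of the Hox genes, Hoxc10 was at 61.2 against 18.7, 43.0, 25.3 and 23.0, while Hoxc6 was at 6.27 against 17.97, 25.1, 28.6 and 24.0. Of 16 posterior Hox genes tested, 4 were fitted above 0, and of 7 anterior Hox genes none was, beside 44.4% of all genes.

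Several mesoderm genes were at 0 in the knockout's allantois cells. For some of the genes named here, the values over that embryo's other cells are given beside the members' own. Of 10 paraxial genes tested, 6 had 0 UMIs in the knockout and 2 in E7.75 control replicate 1, against 170 (1.87%) and 87 (0.959%) of all genes tested. A gene at 0 in the knockout could pass the filter on low counts through the controls only. The paraxial list was low in members, at 63.9 CPM in sum in E7.75 control replicate 1. The shares over all genes were not matched for level, so these counts of 0 are a description only. Tbx6 had 0 UMIs against 7 in that control, Hes7 0 against 9, and Mesp1 itself 0 against 8. Aldh1a2 had 1 UMI in the knockout and 10 in that control, and was at 1.57 CPM against 21.6, 24.9, 11.01 and 25.8 in the controls (adjusted p = 0.798 by edgeR). Over all other cells of the knockout Tbx6 was at 5.54 CPM against 17.8 to 45.7 in those of the late controls, Hes7 at 0.471 against 25.5 to 47.5, and Aldh1a2 at 0.314 against 60.5 to 179.5. The retinoic acid binding protein Crabp2 was at 17.2 in members against 38.8, 48.6, 47.4 and 51.1, and at 23.45 in the other cells against 118 to 222. In other lists, the heart genes Tnni1 and Actc1 had 2 and 3 UMIs in the knockout against 26 and 18 in that control, Cdx1 3 against 18, the FGF target Etv4 5 against 24, and the imprinted Nnat 14 against 68. In the other cells Cdx1 was at 2.06 CPM in the knockout against 74.35 to 249.2 in the late controls, Etv4 at 9.88 against 24.7 to 45.8, and Nnat at 94.1 against 142 to 222, while Tnni1, at 11.9, lay within the control range of 9.23 to 68.04. Hoxa3, the receptor Fzd10 and the Wnt antagonist Notum had 0 against 8, 8 and 5. The other way, Smad6 had 25 UMIs against 12 and Hoxc10 39 against 23. Tdgf1, the Nodal co-receptor, had 8 UMIs in the knockout and 0 in that control. Over all other cells of the knockout Tdgf1 was at 108 CPM, against 0.653 to 3.88 in those of the late controls, and its part in the members' value was not tested. Stage, experiment and genotype cannot be told apart with 1 knockout embryo.

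**Figure D5:**
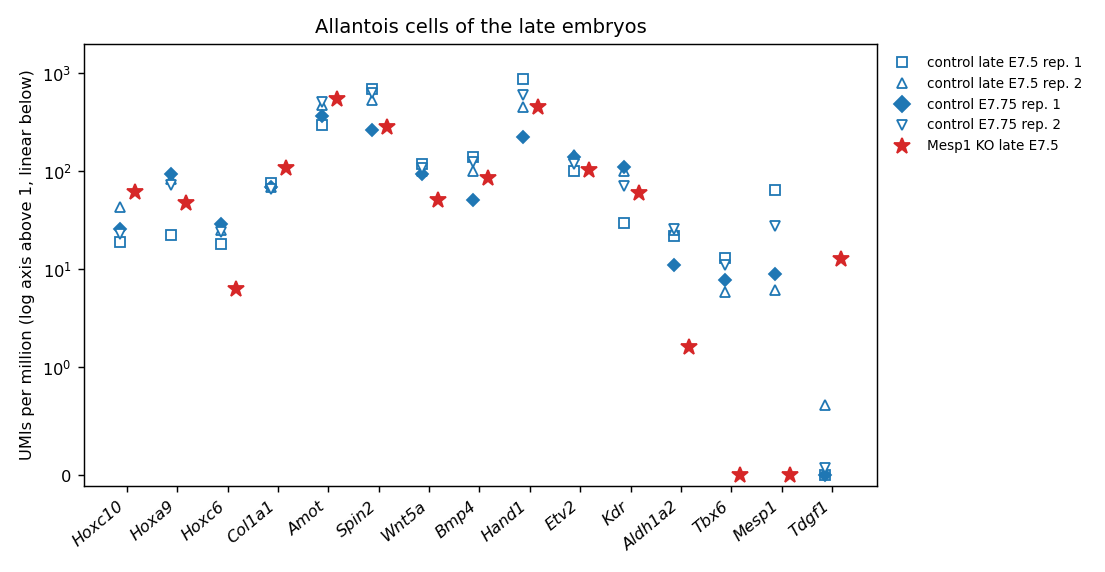
CPM of 15 genes in the allantois cells of the late controls (blue, each embryo a marker shape) and the late knockout (red star). The filled diamond is E7.75 control replicate 1 of the knockout's experiment. Over the other cells, not shown, Col1a1 was higher and Wnt5a lower in the knockout than in every late control. Col1a1 (107 against 65.3 to 74.7) lies above and Wnt5a (50.2 against 92.5 to 119) below all controls, and no gene passed the adjusted threshold.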

How the data were processed

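Whole embryos were captured 1 per library with 10x Genomics 5′ reagents, and the authors made UMI counts with Cell Ranger 3.0.2 on the mm10 (GRCm38) genome with eGFP and Ai14 sequences added. The deposited counts per cell of 15 libraries, 12 control and 3 knockout, were read as they stand over 38295 features, and no sample columns of other series were found. Groups came from the sample labels. Cells were kept with 200 to 7000 genes, fewer than 50000 UMIs and less than 10% mitochondrial UMIs. Doublets were kept, and 9988 cells (10.7%) were marked as likely doublets by their likeness to simulated pairs. The members and the gene lists (323 genes, 321 in the files) were chosen with earlier results of these data known.

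UMIs of each cell set were summed per embryo (at least 10 cells), filtered on low counts by filterByExpr, scaled by TMM and tested in edgeR 4.0.16 (quasi-likelihood, Benjamini-Hochberg adjustment, threshold 0.05) in R 4.3.3. The embryo was the block where both sets came from it. Fold changes are log2, with a prior count of 0.5 for descriptive ratios. Each SE is the absolute log2 difference divided by the square root of the test's F statistic, and is not the spread between embryos. Scripts were tested on simulated data. Shares were compared over embryos by exact permutation, with Clopper-Pearson intervals at 95% and a floor of 3 counts. DESeq2 1.42.0, other filters, other rules, depth thinned to 2000 UMIs, doublet removal and each embryo left out were alternatives. Each embryo is 1 sample, and the embryos differ in stage and experiment. Where both sets came from the same embryo, p-values measure the spread of the within-embryo difference. In the knockout test the spread comes from the late controls. The knockout, alone in its group, was assumed to vary like them. Visceral endoderm cells held at least 3 of their marker genes. Ectoderm cells held at least 3 of theirs and no Hand1 UMI.

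Genes named were the 20 leading genes at 50 CPM or more in every late control, and the 4 largest of each list (2 for the knockout). Also named were the 12 largest changes per direction at 20 CPM or more. These were taken among called genes that moved the same way in every embryo, so that likeness between embryos was a condition of being named. Wnt11, Hoxd3, Cdx2, Rarg, Cyp26a1, Vcam1, Itga4 and Ifitm3 were added after their values were seen, as were the germ cell and junction genes given by level only. Some genes the rule named are not reported here. Python 3.11.15, NumPy 2.4.6, SciPy 1.17.1, pandas 2.3.3 and matplotlib 3.10.9 were used.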

Additional observations from a re-analysis of the deposited data

Results flagged for a closer look

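In 4 of 133 results, the value of E7.75 control replicate 1 lay apart from those of the other embryos by Dixon's test, which chance meets in about 1 of 20 groups. These were log2 ratios of allantois to comparison cells. Tbx20 was at -0.10 in that embryo, Fgf4 at 0, the lncRNA C430049B03Rik at 0.53 and Suv39h1 at 1.72. This embryo had 77 comparison cells and a median of 5826 UMIs per member, and the part of either in these values was not tested.

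Cells that met the allantois rule were also found before early E7.5, in data that no comparison used. They made up 0.175% of cells at E6.5, 0.235% at late E6.5 and 0.161% at E7.0, which is 7, 5 and 9 cells.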

How the results depend on the processing

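Against the mean of the late controls, the knockout difference in the share of allantois cells was negative in every setting. It ranged from -2.42 to -1.13 points with each control left out. Against the control of experiment 5 alone it was 0.026 points, and 0.101 after thinning there, alternatives chosen after seeing the data. Against that control it was also positive with at least 2 Tbx4 UMIs required and without likely doublets. It was negative there with Plac1 not counted, with at least 2 partner genes required and with any Tbx4 UMI taken. The eGFP difference turned to -0.776 points after thinning. The call count against Tbx4-negative mesoderm was 2769 of 12838 genes. With no replicate block it was 631, and 28 calls on named genes were lost. Pairing here is by embryo, since both cell sets came from the same one. It was 137 of 3522 genes after thinning, which also left late E7.5 control replicate 1 with under 10 members and so out, and where of 891 earlier calls tested 686 had the same direction and 98 passed. It was 1845 with the late controls and the knockout, and 1161 to 3020 with 1 embryo left out, the lowest without E7.75 control replicate 2. In experiment 7 alone, added after seeing the data, it was 2748, 2217 of them called before. With no Hox gene used to choose either set, also added then, it was 2843, 2677 of them called before. Signs changed for Hbb-bh1 (-0.91 as reported, 0.14 with no block, 0.17 without doublets, and -2.31 to 0.0107 with 1 embryo left out, the highest without E7.75 control replicate 2) and Apoa4 (-0.37 with Hand1 and Foxf1 required, -0.054 with at least 2 Tbx4 UMIs). Thinning turned Ccne1 (-0.60) to 0.11 and Dlk1 (1.62) to -0.018. The knockout test gave 0 genes, 2 by DESeq2, and 0 to 256 with 1 control left out, 256 without E7.75 control replicate 1. Late groups share only replicate number 1. With experiment as a replicate block, added after seeing the data, it was 3 (BC002163, Crabp1 and mt-Atp8) and Spin2 turned from -0.50 to 0.064. That fit compares the knockout with E7.75 control replicate 1 alone, 1 library against 1, with its spread from the 2 late experiment 7 controls. The cause of these changes was not tested. Of the values for named genes, 1790 kept direction and side of the threshold, 97 lost a call and 24 gained one. The 3 younger controls with members had 5 to 9 cells and entered no test, and depth limits the experiment 5 embryos.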

Other observations

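In the comparison cells of the late knockout, that is Hand1+ Foxf1+ cells without Tbx4 or a partner gene, Col1a1 was at 92.6 CPM, against 4.80 to 14.2 in those of the 5 control embryos. Krt19 was at 91.4 there, against 8.25 to 16.6. In the knockout's allantois cells the values were 107 and 45.5, so that Col1a1 did not separate these sets in the knockout as it did in the controls. Amot was at 164 in the comparison cells of the knockout and 26.0 to 69.1 in those of the controls, and at 552 in its allantois cells. The anterior Hoxb1 was at 8.21 in the comparison cells of the knockout and 61.5 to 230 in those of the controls. These values come from 168 cells of 1 embryo and were not tested.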
